A study of Mus musculus with 92 samples.

Results

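Sites of the cohesin subunit STAG1 that were called in one stage of primordial germ cell-like cells (PGCLC) and not in the other were compared in mouse cells. PGCLC are made in culture from pluripotent stem cells and stand for early primordial germ cells, and the stages carried the labels d4c7PGCLC and d2PGCLC. Chromatin immunoprecipitation and sequencing (ChIP-seq) located the proteins, and the values are lists of peaks, intervals with more reads than the background. A STAG1 site of a stage was a merged interval overlapped by both replicate lists of that stage. A gained site was a d4c7PGCLC site that overlapped no peak of either d2PGCLC list, and a lost site was a d2PGCLC site that overlapped no peak of either d4c7PGCLC list. By this rule 11124 of 35110 d4c7PGCLC sites were gained (31.7%) and 465 of 20145 d2PGCLC sites were lost (2.31%), together 11589 regions. Retained sites, those with a site in the other stage, numbered 19070 of the d4c7PGCLC sites. A further 4916 d4c7PGCLC sites and 552 d2PGCLC sites overlapped a peak of the other stage that was not a site there.

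Both stages were wild type and came from the same BVSC cells, line BDF1-2-1 with the reporters Blimp1-mVenus and Stella-ECFP, sorted for the Blimp1-mVenus signal. STAG1 had 2 lists a stage and STAG2 had 3, each called on 1 library. CTCF was read only in germline stem cells (GSC), which are cultured spermatogonial cells, of another line (AAG, with Acrosin-EGFP and beta-Actin-EGFP). The GSC had the 4 genotypes Stag1Stag2dKO, Stag1Stag3dKO, Stag2Stag3dKO and Stag3KO, each with 1 list called on pooled replicates. Wild-type STAG1 lists of GSC, of epiblast-like cells (EpiLC) and of embryonic stem cells (ESC) were used for comparison. The series holds 92 samples, and 30 peak lists were used. The labels do not say whether replicates were separate cultures, so each p-value measures only the spread between these lists, which may be technical. Peak lists hold no expression, so the markers of these cell types could not be read.

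Cohesin is a ring of SMC1A, SMC3 and RAD21 that holds sister chromatids together and extrudes DNA into loops. STAG1 and STAG2 are alternative subunits that bind the ring in mitotic cells, and STAG3 is known from meiotic cohesin. CTCF is a zinc-finger protein that halts cohesin at loop anchors and binds the STAG subunit. A STAG1 peak without CTCF can lie at an enhancer or an active promoter, where cohesin is loaded or held.

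A genome sequence was not used here, so sequence could be shown only where a site reached a gene's promoter window, 250 bases before to 50 after a start, from RefSeq on GRCm38.p6. A gained site overlapped 223 of 21262 such windows of protein-coding genes, and a lost site overlapped 33. Shown are the promoters of 3 of the 5 list genes whose window a gained site overlapped, of the gene with the highest gained peak over such a window (Peg12), and of the gene with the highest lost one (Krt8). Each is written 5′ to 3′ on the gene's strand, and capitals mark the bases inside the STAG1 site. Sycp2 codes for an axial element protein of meiotic chromosomes (window chr2:178407609-178407908, minus strand). Rec8 codes for the meiotic kleisin that takes the place of RAD21 (window chr14:55617916-55618215, plus strand). Lifr codes for the receptor of the cytokine LIF (window chr15:7129322-7129621, plus strand). Peg12 is a paternally expressed imprinted gene (window chr7:62464461-62464760, minus strand). Krt8 codes for a keratin of simple epithelia (window chr15:102004293-102004592, minus strand).
Sycp2: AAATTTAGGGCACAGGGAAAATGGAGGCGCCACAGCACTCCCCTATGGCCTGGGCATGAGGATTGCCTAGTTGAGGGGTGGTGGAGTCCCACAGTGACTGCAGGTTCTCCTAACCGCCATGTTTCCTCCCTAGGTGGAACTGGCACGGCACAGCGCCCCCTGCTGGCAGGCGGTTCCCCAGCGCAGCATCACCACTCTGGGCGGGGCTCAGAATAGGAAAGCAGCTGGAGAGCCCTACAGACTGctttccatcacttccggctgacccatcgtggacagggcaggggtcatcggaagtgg
Rec8: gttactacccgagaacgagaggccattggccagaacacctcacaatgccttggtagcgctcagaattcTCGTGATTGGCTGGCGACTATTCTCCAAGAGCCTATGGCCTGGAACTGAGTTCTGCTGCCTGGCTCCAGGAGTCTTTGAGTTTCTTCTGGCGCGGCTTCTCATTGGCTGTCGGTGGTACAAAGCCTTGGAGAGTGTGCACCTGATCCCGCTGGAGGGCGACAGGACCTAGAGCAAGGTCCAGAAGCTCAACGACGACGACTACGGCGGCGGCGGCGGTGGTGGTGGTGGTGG
Lifr: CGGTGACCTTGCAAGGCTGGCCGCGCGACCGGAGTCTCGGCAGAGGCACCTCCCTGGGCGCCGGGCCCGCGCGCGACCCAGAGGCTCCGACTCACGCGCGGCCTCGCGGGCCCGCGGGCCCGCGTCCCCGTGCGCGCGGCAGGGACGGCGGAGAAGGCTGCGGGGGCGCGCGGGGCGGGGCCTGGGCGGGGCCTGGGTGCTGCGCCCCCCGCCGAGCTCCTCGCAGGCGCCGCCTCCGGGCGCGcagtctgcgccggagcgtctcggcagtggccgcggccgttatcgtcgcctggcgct
Peg12: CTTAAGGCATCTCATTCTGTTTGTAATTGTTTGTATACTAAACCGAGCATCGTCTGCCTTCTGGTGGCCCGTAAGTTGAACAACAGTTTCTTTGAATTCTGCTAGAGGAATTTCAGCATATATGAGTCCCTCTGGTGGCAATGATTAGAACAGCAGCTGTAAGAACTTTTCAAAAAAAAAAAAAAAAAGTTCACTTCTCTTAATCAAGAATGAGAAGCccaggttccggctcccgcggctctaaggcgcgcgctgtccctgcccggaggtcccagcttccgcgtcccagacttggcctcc
Krt8: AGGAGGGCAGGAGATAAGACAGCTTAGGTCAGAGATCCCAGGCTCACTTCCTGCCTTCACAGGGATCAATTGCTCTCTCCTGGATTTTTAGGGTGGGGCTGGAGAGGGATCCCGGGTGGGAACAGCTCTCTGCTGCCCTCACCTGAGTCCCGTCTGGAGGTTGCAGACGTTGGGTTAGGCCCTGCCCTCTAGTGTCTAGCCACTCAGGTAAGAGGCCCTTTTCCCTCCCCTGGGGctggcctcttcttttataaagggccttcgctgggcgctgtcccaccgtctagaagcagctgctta

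The Sycp2 site lay at CTCF peaks of all 4 GSC genotypes, and its window was the only one of these to hold the CTCF core consensus. The match is on the strand opposite to the gene and reads GCCCCCTGCTGG on the gene's own strand. The Peg12 site also lay at CTCF peaks of all 4 genotypes, and its window held no match, which says only that these letters are not in it. The fold enrichment, the authors' ratio of a peak's signal to its background, was 16.7 and 22.8 at the Peg12 site in the d4c7PGCLC lists, and at the lost Krt8 site it was 6.21 and 9.79 in the d2PGCLC lists. The Rec8, Lifr and Krt8 sites overlapped no CTCF peak of any genotype. Searched on both strands, the core consensus was in 355 of all 21262 windows (1.67%), in 14 of 223 windows with a gained site (6.28%), in 1 of 33 with a lost site (3.03%) and in 175 of 932 with a retained site (18.8%). Where the gained site lay at CTCF in all genotypes, 12 of 117 windows held it (10.3%), against 2 of the other 106 (1.89%). Windows with a site were also richer in CpG, with a median of 21 CpG in gained, 23 in lost and 22 in retained windows, against 13 in all windows.

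STAG1 lists were longer in d4c7PGCLC. The replicates held 38491 and 42013 peaks in d4c7PGCLC, and 21438 and 26820 peaks in d2PGCLC. The groups did not overlap, and the means were 40252 ± 2490.4 peaks in d4c7PGCLC and 24129 ± 3806 peaks in d2PGCLC (SD, n = 2 each). The log2 difference was 0.75, a ratio of 1.68, with p = 0.333 in a two-sided exact permutation test, the smallest p that 2 against 2 lists allow. The sequencing depth behind a list is unknown here, and its part in list length was not tested. The 4 STAG1 lists were therefore also compared at the same length, the 21438 peaks with the highest fold enrichment in each. This is the full length of d2PGCLC replicate 1, so only the other lists were shortened.

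With lists of equal length there were 2446 gained sites of 18840 (13.0%) and 2166 lost sites of 18511 (11.7%). Of these gained sites, 1898 (77.6%) were also gained in the lists as deposited, and 548 lay at a d2PGCLC peak that the shortening had removed. Of the equal-length lost sites, 314 (14.5%) were also lost as deposited, and 1852 lay at a d4c7PGCLC peak that had been removed. The shortening kept the highest peaks and removed only lower ones. A deposited gained or lost site of high fold enrichment therefore keeps its class by construction. Lists of equal length give close totals of sites, so close numbers of gained and lost sites follow by construction and do not show why the deposited counts differ. Single lists also moved the counts. Where the remaining list of a stage alone gave its sites, 16905 sites were gained without d4c7PGCLC replicate 1, and 844 were lost without d4c7PGCLC replicate 2. Without d2PGCLC replicate 1, 2031 sites were lost, and without d2PGCLC replicate 2, 810 were.

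**Figure D1:**
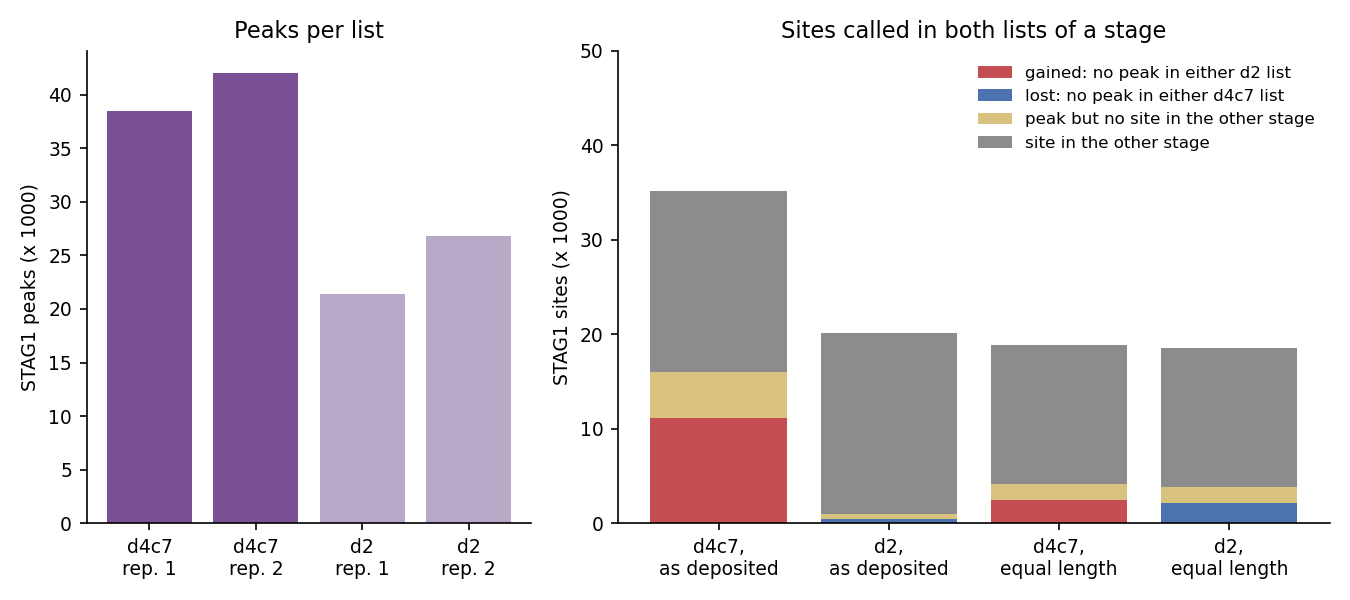
Number of peaks per STAG1 list (left) and number of STAG1 sites by class (right), for the lists as deposited and for lists of equal length. Gained sites number 11124 against 465 lost sites as deposited, and 2446 against 2166 with equal lengths.

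Gained and lost sites were lower peaks than retained sites. The median fold enrichment, taken from the lower of the 2 lists at each site, was 5.57 at gained sites, 4.78 at lost sites and 14.1 at retained sites in the d4c7PGCLC lists. In the d2PGCLC lists it was 7.8 at retained sites. Gained sites were 338 bp long in the median and lost sites 302 bp. Retained sites were 523 bp long in the d4c7PGCLC lists and 410 bp in the d2PGCLC lists. Among d4c7PGCLC sites with a fold enrichment of 10 or more, 6.05% were gained, whereas among those under 4 the share was 71.4%. Among d2PGCLC sites the lost share was 0.121% at 10 or more and 10.6% under 4. The highest gained site reached 31.0 and the highest lost site 20.1. With equal lengths the median fold enrichment was 10.0 at gained and 17.0 at retained sites in the d4c7PGCLC lists, and 5.5 at lost sites in the d2PGCLC lists. In these bulk samples, binding in fewer cells and weaker binding in each cell cannot be told apart.

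As deposited, most gained sites lay at CTCF and most lost sites did not. A CTCF peak called in all 4 GSC genotypes lay at 6790 gained sites (61.0%), at 78 lost sites (16.8%) and at 16507 retained sites (86.6%). No CTCF list had a peak at 3155 gained sites (28.4%), 323 lost sites (69.5%) and 1288 retained sites (6.75%). Single genotypes gave the same order, from 64.5% in Stag1Stag3dKO to 69.0% in Stag3KO for gained sites and from 21.3% in Stag2Stag3dKO to 26.0% in Stag1Stag2dKO for lost sites. With lists of equal length the shares were 79.5% of gained, 47.2% of lost and 91.5% of retained sites. No CTCF list then had a peak at 11.7% of gained, 36.2% of lost and 3.71% of retained sites, so most lost sites of that setting did have a CTCF peak of at least 1 genotype. Gained sites of that setting were also higher peaks than lost ones, with median fold enrichments of 10.0 and 5.5. Its CTCF shares were not split by height. Gained sites had a higher CTCF share than lost sites under 11 of 11 alternative settings, and retained sites a higher share than gained sites under 11 of 11. Sites are not replicates, so these shares carry no test. CTCF was read in cells of another type, line and genotype, and a site off these peaks may have CTCF in PGCLC.

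**Figure D2:**
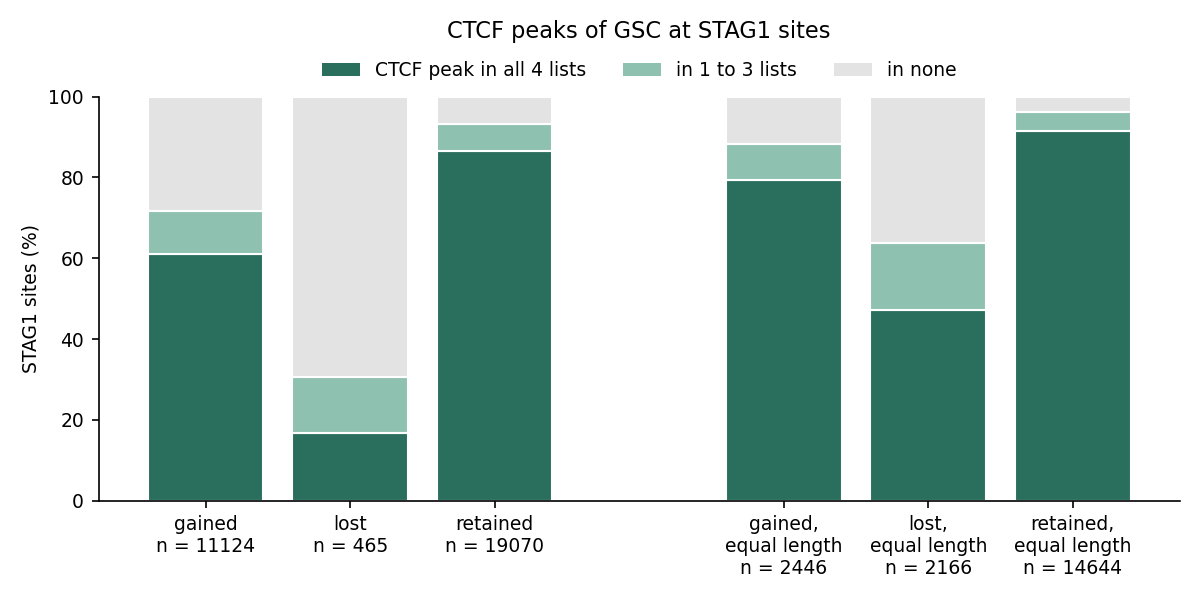
Percent of gained, lost and retained STAG1 sites with a CTCF peak of GSC in all 4, in 1 to 3 or in none of the CTCF lists, for the lists as deposited (left) and for lists of equal length (right). The share at CTCF in all lists is 61.0%, 16.8% and 86.6% as deposited and 79.5%, 47.2% and 91.5% with equal lengths.

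Peak height moved with the CTCF share at gained sites. At a fold enrichment under 4, 561 of 1248 gained sites lay at CTCF of all genotypes (45.0%), between 4 and 6 the share was 54.4%, between 6 and 10 it was 71.1%, and at 10 or more 747 of 926 did (80.7%). Retained sites of the same heights in the d4c7PGCLC lists had 58.8%, 61.2%, 76.2% and 92.8%. In each band gained sites lay below retained sites of like height. Retained sites by their height in the d2PGCLC lists had 79.7%, 80.4%, 85.1% and 93.6%. Lost sites, also by d2PGCLC height, stayed low in every band, with 14.3% of 105, 18.9% of 264, 12.5% of 88 and 2 of 8. The fewest sites were in the last of these bands.

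**Figure D3:**
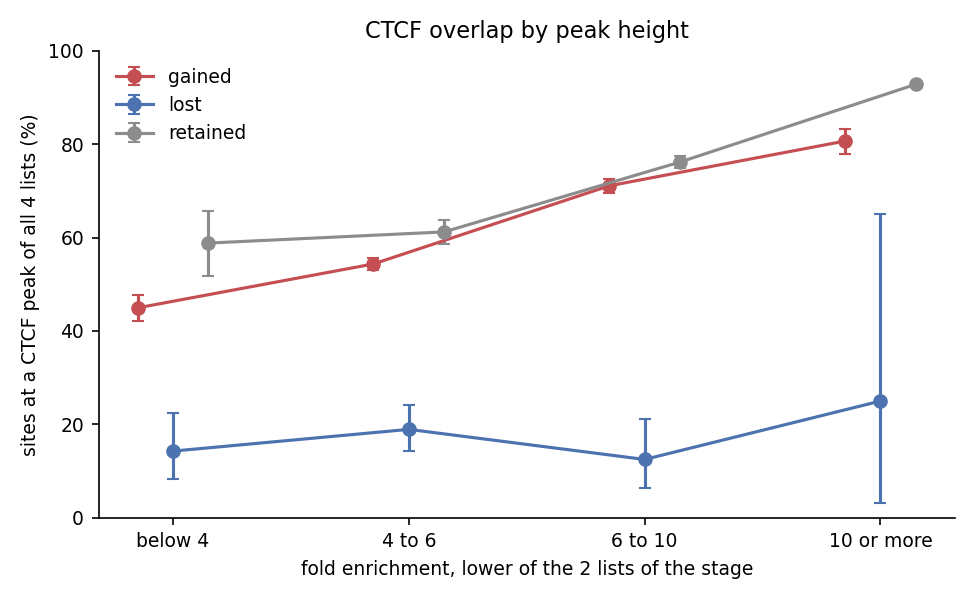
Percent of STAG1 sites at a CTCF peak of all 4 lists, by fold enrichment (the lower of the 2 lists of the stage, d4c7PGCLC lists for gained and retained sites and d2PGCLC lists for lost sites). Bars are exact 95% binomial intervals, which cover counting of sites only, and gained sites run from 45.0% to 80.7% while lost sites lie at or under 25%.

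Counted over peaks of whole lists, the CTCF share turned with list length. As deposited it was 72.2% and 69.2% in d4c7PGCLC, and 81.8% and 75.8% in d2PGCLC, a difference of -8.06 percentage points (p = 0.333 in the two-sided exact permutation test, as low as it can go). With equal lengths it was 87.5% and 87.6% in d4c7PGCLC, and 81.8% and 81.4% in d2PGCLC, a difference of 5.97 points (p = 0.333, same exact test). The d4c7PGCLC lists lay below the d2PGCLC lists before the shortening and above them after it. Of the 36623 CTCF sites shared by all genotypes, 26865 (73.4%) had a d4c7PGCLC STAG1 site and 16806 (45.9%) a d2PGCLC STAG1 site, and 18.5% had a gained one.

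STAG2, the other mitotic variant, was called at many of the gained sites already in d2PGCLC. A STAG2 peak lay at 74.2%, 43.4% and 47.7% of gained sites in the d4c7PGCLC lists, and at 70.8%, 35.5% and 63.3% in the d2PGCLC lists. These ranges overlapped, and the means were 55.1% ± 16.7 in d4c7PGCLC and 56.5% ± 18.6 in d2PGCLC (SD, n = 3 each), a difference of -1.4 points (two-sided exact permutation p = 1). The sign turned where all 6 STAG2 lists were compared at 35799 peaks, the full length of d4c7PGCLC replicate 2. The shares were then 52.4%, 43.4% and 46.5% in d4c7PGCLC, and 33.0%, 28.9% and 40.0% in d2PGCLC, which did not overlap (difference 13.5 points, p = 0.1 in this exact test, as low as 3 against 3 lists can give). It also turned without any 1 of 4 STAG2 lists: to 4.45 points without d4c7PGCLC replicate 2, 2.32 without d4c7PGCLC replicate 3, 5.74 without d2PGCLC replicate 1 and 1.99 without d2PGCLC replicate 3.

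Lost sites had STAG2 peaks far more often in d2PGCLC. The shares were 50.5%, 32.9% and 31.4% in the d4c7PGCLC lists, and 86.7%, 77.6% and 84.5% in the d2PGCLC lists. Every d4c7PGCLC list lay below every d2PGCLC list, with means of 38.3% ± 10.6 in d4c7PGCLC and 82.9% ± 4.72 in d2PGCLC (SD, n = 3 each). The difference was -44.7 points with p = 0.1, the smallest this two-sided exact permutation test can give. With STAG1 lists of equal length it was -20.7 points (exact permutation p = 0.1), and the groups again did not overlap. Per STAG2 list, the share of gained sites minus the share of lost sites averaged 16.8 ± 6.6 points in d4c7PGCLC and -26.4 ± 13.9 points in d2PGCLC (SD, n = 3 each), a difference of 43.3 points (exact permutation p = 0.1). This last contrast was chosen after the values had been seen. Retained sites had STAG2 in 95.3% to 99.0% in d4c7PGCLC and in 98.2% to 99.9% in d2PGCLC.

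Of the 465 lost sites, 104 (22.4%) had a STAG2 peak in all 3 d2PGCLC lists and in no d4c7PGCLC list, and 0 had the reverse. Among gained sites, 290 (2.61%) had STAG2 in all 3 d4c7PGCLC lists and in no d2PGCLC list, and 166 (1.49%) had the reverse. No STAG2 list of either stage had a peak at 1244 gained sites (11.2%) and 59 lost sites (12.7%). Over the d4c7PGCLC lists, STAG2 lay at 78.2%, 45.4% and 49.3% of gained sites at CTCF of all genotypes, and at 66.3%, 39.3% and 44.6% of gained sites with no CTCF peak.

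Many gained sites overlapped STAG1 peaks of other cell types. The ESC lists had a peak at 71.4% and 45.2% of gained sites and at 37.8% and 20.2% of lost sites. The EpiLC lists had one at 8.14% and 30.6% of gained sites and at 9.68% and 28.8% of lost sites. The GSC lists had one at 11.7% and 13.9% of gained sites and at 4.73% and 4.3% of lost sites. With STAG1 lists of equal length the ESC lists had a peak at 94.8% and 80.4% of gained sites and at 76.8% and 52.1% of lost sites. The EpiLC shares were then 24.0% and 58.9% of gained and 18.4% and 47.8% of lost sites, and the GSC shares 28.3% and 32.3% of gained and 3.6% and 4.89% of lost sites. As deposited, gained sites stood above lost sites in both ESC and both GSC lists, while the EpiLC lists gave overlapping shares. In all, 2477 gained sites (22.3%) and 227 lost sites (48.8%) were in no other STAG1 list, against 189 retained sites (0.991%). The gained sites of no other STAG1 list lay at CTCF of all genotypes in 34.7%, and those of any GSC list in 98.9%. Retained sites had 32.8% and 99.7% in these 2 groups. All peaks of the GSC STAG1 lists lay at this CTCF, itself read in GSC, in 98.9% and 97.0%. The GSC lists were the shortest, with 9641 and 10778 peaks, and the ESC lists held 39055 and 29222, and these lengths were not made equal here.

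**Figure D4:**
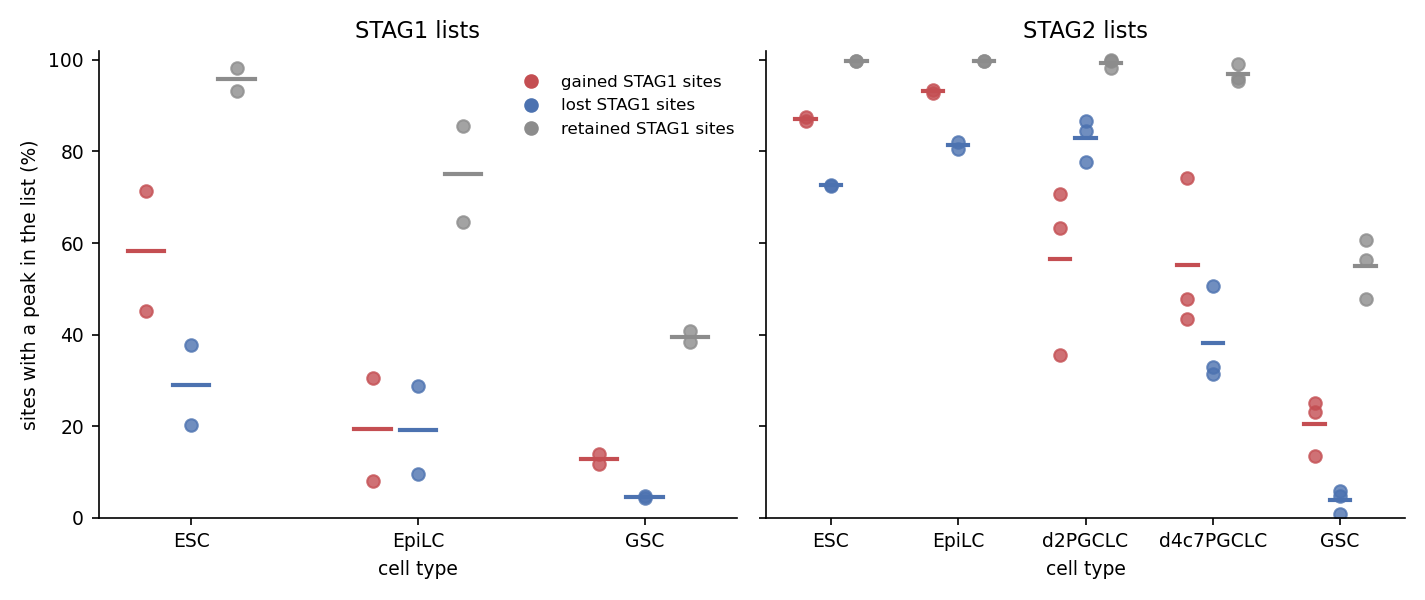
Percent of gained, lost and retained STAG1 sites with a peak in each STAG1 list (left) and STAG2 list (right) of the named cell types. Points are lists and short lines their means, and lost sites fall below gained sites in STAG2 of d4c7PGCLC (38.3% and 55.1%) but lie above them in STAG2 of d2PGCLC (82.9% and 56.5%).

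Lost sites of all heights together were more often at gene starts, but the higher ones were not. Windows reaching 2500 bp up- and downstream of the starts of protein-coding genes were overlapped by 1157 gained sites (10.4%), 113 lost sites (24.3%) and 2985 retained sites (15.7%). With equal lengths the shares were 9.36% of gained, 23.6% of lost and 14.3% of retained sites. Split by fold enrichment in the d2PGCLC lists as deposited, lost sites had 23.8% under 4 and 30.7% between 4 and 6. Between 6 and 10 the share was 7.95% of 88 lost sites, and at 10 or more it was 0% of 8. Retained d2PGCLC sites had 19.7%, 17.3%, 16.0% and 12.8% in these bands. Inside a gene body but off the start lay 42.4% of gained and 39.6% of lost sites. Over all peaks of a list the gene start share was 14.9% and 14.3% in d4c7PGCLC, and 15.8% and 17.5% in d2PGCLC, a difference of -2.01 points (two-sided exact permutation p = 0.333). The median distance to the nearest retained site was 30.8 kb for gained and 26.1 kb for lost sites.

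A gained site lay in the start window of 1217 of 21883 protein-coding genes (5.56%), and a lost site in that of 141 (0.644%). With lists of equal length it was 241 genes (1.1%) gained and 534 (2.44%) lost, so which class held more genes depended on list length. The RefSeq table gave no strand for 4392 of the genes, and for these both gene ends were used. With a strand known, 836 genes had a gained site and 77 a lost one. None of Stag1, Stag2, Stag3, Rad21 and Ctcf had a gained or lost site in its start window, and Stag1, Stag2 and Ctcf had a retained one.

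Among the core pluripotency genes, 2 of 10 had a gained site and 0 a lost one, beside 5.56% and 0.644% of all genes. A window of 1000 bp left 1 of the 10 with a gained site, beside 3.04% of all genes. At Pou5f1, which codes for the pluripotency factor OCT4 that germ cells keep, the fold enrichment was 15.4 and 14.6 in the d4c7PGCLC lists, with no peak in either d2PGCLC list. This site (chr17:35509289-35509716) had its centre 696 bp inside the gene from the start, overlapped no CTCF peak, and had STAG2 peaks in all 3 lists of both stages and STAG1 peaks in both ESC lists. Near Dppa2, an early embryonic chromatin factor, the fold enrichment was 9.22 and 12.2 (chr16:48320835-48321227), at CTCF of all 4 genotypes. Dppa2 has no strand here, and the site lay 1322 bp outside a gene end that may not be its start. Among all genes without a given strand, 8.67% had a gained site. Both sites were also gained with lists of equal length, where 1.1% of all genes had a gained site, and both were called in ESC. That they stayed gained follows from peak height and is no separate support.

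The PGC specifiers and early markers had a gained site at 3 of 16 genes, beside the 5.56% of all genes. With a window of 1000 bp it was 1 of 16, beside 3.04% of all genes. A retained site lay at 8 of the 16, beside 13.5% of all genes. Elf3, an ETS-family transcription factor, had a gained site with a fold enrichment of 8.5 and 10.3 that was also gained with equal lengths. Nanos3, an RNA-binding protein needed for germ cell survival, had one with 8.99 and 4.12, and Dppa3, the maternal factor also called Stella, one with 4.1 and 4.78. For Dppa3 no strand is given, and the site lay 1426 bp outside a gene end that may not be its start. The Nanos3 and Dppa3 sites were not gained with equal lengths, where lower peaks were cut, so this split among the 3 genes follows peak height. The windows of the 3 genes held 5 gained sites in all, of which 1 a gene is described here. None of these 3 described sites overlapped a CTCF peak. At the Dppa3 site STAG2 peaks stood in all 3 d4c7PGCLC lists and in no d2PGCLC list.

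The later germline genes had a gained site at 2 of 26 and a lost site at 1, beside the same 5.56% and 0.644%. Tex19.1, which restrains retrotransposons, had a gained site with a fold enrichment of 5.21 and 6.22 at CTCF of all genotypes and no STAG2 peak in either stage. Dpep3, a testis dipeptidase, had a gained site of 4.28 and 3.97. Dazl, an RNA-binding protein of germ cells, had a lost site with 4.24 and 7.76 in the d2PGCLC lists (chr17:50291584-50292123), which lay at CTCF of 2 genotypes and was called in both ESC lists. All 3 lists of both stages had a STAG2 peak at the Dazl site.

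Genes of meiotic entry and the chromosome axis had a gained site at 3 of 21 and a lost site at 1, beside 5.56% and 0.644% of all genes. A window of 1000 bp left 1 of 21 with a gained site, beside 3.04% of all genes. The gained ones were Sycp2, with 8.35 and 8.56, Dmc1, the meiotic strand-exchange recombinase, with 5.1 and 5.92, and Rec114, which is needed for meiotic double-strand breaks, with a lower value of 4.86. Mei1, also needed for those breaks, had a lost site with 6.77 and 5.5 in the d2PGCLC lists. The fold enrichment of STAG2 at the Mei1 site was 6.47, 6.42 and 6.35 in d4c7PGCLC, and 40.7, 15.5 and 23.4 in d2PGCLC, each on the scale of its own list. None of the 3 gained sites of this list was gained with equal lengths, whereas the Mei1 site was also lost then. Both outcomes depend on where the shortening cut each list.

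Cohesin and CTCF genes had a gained site at 2 of 20 and a lost site at 0, again beside 5.56% and 0.644%. With a window of 1000 bp it was still 2 of 20 with a gained site, beside 3.04% of all genes. Rec8, with a gained site across its start, had a fold enrichment of 7.28 and 5.64, and Ctcfl, the germline paralogue of CTCF, had 4.59 and 4.72 at CTCF of all genotypes. Ctcfl has no strand here, so this gene end may not be its start, and the site lay inside another gene, Gm40011. Among DNA methylation and demethylation genes, 0 of 15 had a gained site and 1 a lost one. This was Uhrf1, which brings the maintenance methyltransferase DNMT1 to replicated DNA, with 4.93 and 8.83 in the d2PGCLC lists, 1743 bp inside the gene from its start. The fold enrichment of STAG2 there was 7.92, 6.42 and 4.93 in d4c7PGCLC, and 43.2, 29.3 and 38.9 in d2PGCLC. All 6 STAG2 lists thus had a peak at this place, while STAG1 was called only in d2PGCLC among these 2 stages.

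Of the remaining lists, naive pluripotency had a gained site at 1 of 16 (Lifr, 4.96 and 4.67), formative epiblast at 1 of 14 (Lef1, 3.43 and 3.89) and Polycomb and H3K9 methylation at 1 of 18 (Cbx2, 3.85 and 5.06). Imprinted genes had one at 2 of 24 (Zim1 and Mest, both at CTCF of all genotypes), neural genes at 2 of 12 (Sox1 and Olig2) and fibroblast genes at 1 of 12 (Pdgfrb). Spermatogonial genes had a lost site at 1 of 20, Gfra1, the receptor for GDNF, with 3.69 and 5.15. Mesendoderm (16 genes), cell cycle (20), PGC signalling (17) and Hox (39) had neither. Beside the 5.56% of all genes, 1 or 2 genes of a list this short are no result about the list.

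Clustered protocadherins, neuronal adhesion genes whose promoter choice uses CTCF and cohesin, had the highest counts of the 18 lists, with a gained site at 22 of 57 genes and a lost site at 22. These genes have no strand in the table and share gene ends, so the counts rest on 20 gained sites but on only 2 lost ones. Among all genes without a given strand, 8.67% had a gained and 1.46% a lost site. With equal lengths 4 of the genes had a gained site and 1 a lost one. The highest of the gained sites were near Pcdha4, with 10.4 in the lower list, and Pcdhga3, with 9.73, both at CTCF of all genotypes.

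With equal lengths, 1.1% of all genes had a gained and 2.44% a lost site in the start window. Core pluripotency then had 2 gained genes and 0 lost ones, and PGC specifiers and early markers 1 and 0. Besides Dazl, Uhrf1, Mei1 and Gfra1, a lost site then appeared at Klf5 and Tbx3, naive pluripotency factors, at Pou3f1 of the formative epiblast, at Myc, Ccna2 and Cdkn2a of the cell cycle, and at Pds5a and Esco1 of the cohesin genes. It also appeared at Acvr1, Tbx6, Mei4, Hoxa10, Hoxb6 and Pcdhga5, and these genes were named after their values had been seen. In the lists as deposited, each of these 14 genes had at least 1 d4c7PGCLC peak at the same place. Pou3f1, for example, had 9.85 and 6.44 in the d2PGCLC lists, and both d4c7PGCLC lists as deposited had a peak there.

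Ranked by the lower fold enrichment, 7 of the 8 highest gained sites lay at CTCF of all genotypes, beside 80.7% of all gained sites at 10 or more. The nearest genes were Eif2b5, Rbpms, Dpf3, Adarb2, Tmem132d, Kyat1, Gramd1a and Sdhb. The highest, 18086 bp from Eif2b5, a subunit of the exchange factor of translation initiation, was the one without CTCF (chr16:20480113-20480709), with 31.0 and 35.8 in the d4c7PGCLC lists. STAG2 there had 43.5, 25.7 and 24.4 in d4c7PGCLC, and between 14.5 and 20.8 in the 3 d2PGCLC lists, each on the scale of its own list. The site inside Kyat1, a kynurenine aminotransferase gene, had 26.97 and 32.3 (chr2:30203210-30203835). All 8 were called in both ESC and both EpiLC STAG1 lists, and in all 6 STAG2 lists of the 2 PGCLC stages. All 8 were gained with equal lengths, which their height fixed in advance.

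The 5 highest gained sites off CTCF were the one near Eif2b5, one inside Kbtbd12, a kelch-domain gene, and a cluster of 3 26146 to 55387 bp from Pls3, the gene of an actin-bundling plastin. The 3 Pls3 sites, on chromosome X between 75729877 and 75759507, had 24.8 and 24.5, 23.1 and 22.4, and 24.0 and 23.9 in the d4c7PGCLC lists. STAG2 at the first of them had 88.5, 59.1 and 69.4 in d4c7PGCLC, whereas in d2PGCLC it had 5.85 and 7.19 in 2 lists and no peak in the other. The site inside Kbtbd12, with 30.0 and 23.6 (chr6:88577817-88578472), had STAG2 peaks in all 3 d4c7PGCLC lists and in no d2PGCLC list.

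Of the 8 highest lost sites those near Zfp407 and Tsc22d2 lay at CTCF of all genotypes, and the others, near Hdx, Sox6, Rgs9, Igfbp7, Nol4l and Bcl11a, overlapped no CTCF peak. Of all lost sites, 16.8% lay at CTCF of all genotypes and 69.5% at no CTCF peak. All 8 were also lost with equal lengths, which again followed from their height. The site inside Zfp407, a zinc-finger gene, had 20.9 and 20.1 in the d2PGCLC lists. The site 84290 bp from Bcl11a, a zinc-finger repressor gene, had 10.1 and 10.3 (chr11:24257848-24258219), with STAG2 peaks in all 3 d2PGCLC lists and in no d4c7PGCLC list. Near Rgs9, a regulator of G-protein signalling, the STAG1 values were 10.5 and 18.3, and STAG2 had 7.22 and 6.39 in 2 d4c7PGCLC lists, against 36.8, 23.0 and 40.2 in d2PGCLC. The sites near Hdx, Tsc22d2 and Igfbp7 differed from the rest in having no STAG2 peak in either stage. They were 214, 220 and 249 bp long and were called in STAG1 lists of ESC, EpiLC and GSC.

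Gained sites were spread over all autosomes and chromosome X, with the highest share on chromosome 5. It held 8.68% of gained sites, 6.24% of lost and 6.34% of retained sites, and 7.84% of the shared CTCF sites. Of its d4c7PGCLC sites, 38.4% were gained, against the 31.7% of all chromosomes, and with equal lengths it held 9.2% of gained sites. The 4 Mb at chr5:146000001-150000000 had 103 gained among 176 d4c7PGCLC sites (58.5%), 52 retained sites and 0 lost ones. With equal lengths 34 of 81 sites there were gained (41.98%). The share of a list's peaks in these 4 Mb was 0.509% and 0.49% for STAG1 of d4c7PGCLC, and 0.275% and 0.295% for STAG1 of d2PGCLC. For STAG2 it was 0.382%, 0.344% and 0.381% in d4c7PGCLC, and 0.334%, 0.305% and 0.309% in d2PGCLC. Every d4c7PGCLC list lay above every d2PGCLC list for both proteins, but for STAG1 this follows from the choice of the region. The other cell types also lay above d2PGCLC. STAG1 had 0.433% and 0.459% in ESC, 0.401% and 0.419% in EpiLC, and 0.882% and 0.826% in GSC. STAG2 had 0.353% and 0.366% in ESC, and 0.396% and 0.376% in EpiLC. The d2PGCLC lists were thus the lowest for both proteins. The region was picked after the values had been seen, and it held many gained sites, which by rule lack STAG1 peaks of d2PGCLC. The low STAG1 shares of d2PGCLC there are therefore no separate support. The part of copy number or of read mapping was not tested.

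**Figure D5:**
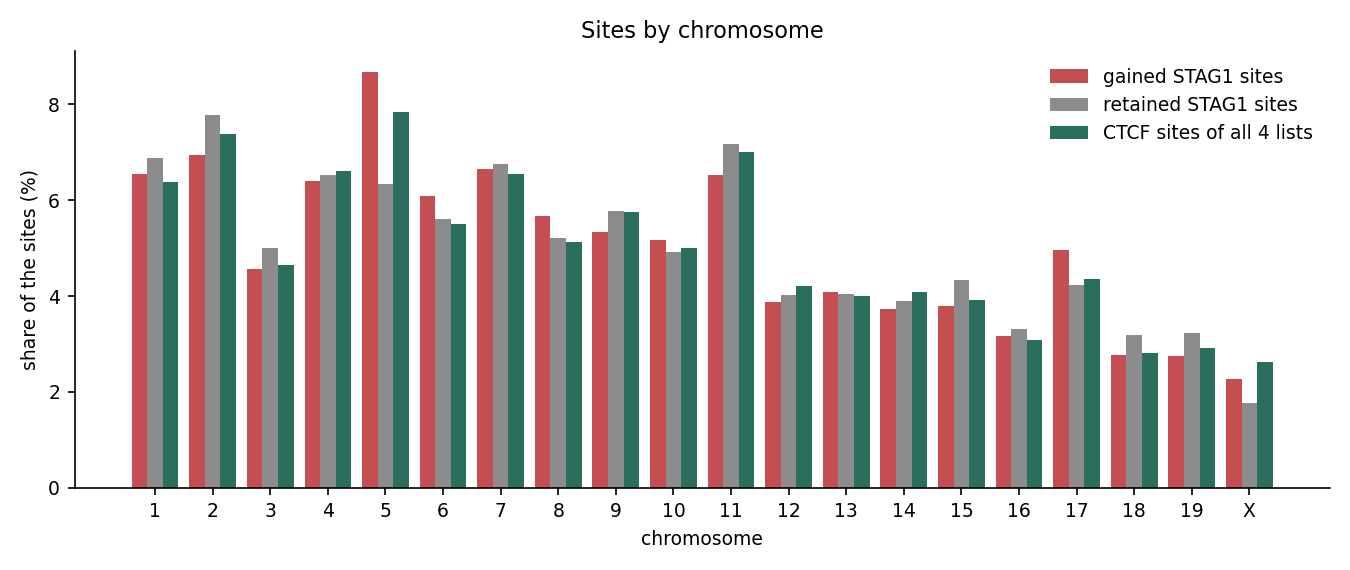
Percent of gained STAG1 sites, retained STAG1 sites and CTCF sites of all 4 lists on each chromosome. Chromosome 5 holds 8.68% of gained sites, 6.34% of retained sites and 7.84% of CTCF sites.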

How the data were processed

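The values were peak lists deposited by the authors, 1 per STAG library and 1 per CTCF genotype on pooled replicates. Per the submitters' processing notes the builds were GRCm38.p3 and mm10, and the tools were MACS2, deepTools 3.5.0, bedtools 2.29.2, SAMtools 1.7, Bowtie2 2.3.4.1, cutadapt 1.9.1 and Trim Galore 0.4.1. Not given in the sources used here are what each tool did, its options, the MACS2 version and the control libraries. The authors' lists give for each peak a fold enrichment (a ratio), −log10 of a p-value and of a q-value, and a score. These were used to describe, rank or filter peaks within a list. The lowest −log10 q in the 4 deposited STAG1 lists was 2.02.

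Overlap meant at least 1 shared bp. Sites, classes and shares were computed with Python 3.11.15, numpy 2.4.6 and pandas 2.3.3, and the interval code was tested on simulated data. Shares per list were compared between stages with two-sided exact permutation tests. The named genes were those of 18 gene lists with a gained or lost site in a start window, the nearest genes of the 8 highest sites of each class and of the 5 highest outside CTCF, and 5 cohesin and CTCF genes. At most 4 genes a list were named, by fold enrichment. Of 378 list entries, 374 matched a protein-coding gene by symbol or synonym. The members and lists were chosen with earlier results of these data known. Alternatives were other overlaps, thresholds, list lengths, windows and class rules, and leaving out each list. Read depth behind the lists is unknown, so no limit of detection was computed.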

Additional observations from a re-analysis of the deposited data

How the results depend on the processing

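The tests between stages rest on 2 or 3 lists a stage and cannot pass a threshold of 0.05, so their p-values say nothing about stability. Of 166 values recomputed under the alternatives, 114 counted as unchanged, 43 moved and 9 reversed. A tested difference counted as unchanged where its sign held, whatever its size, because its p-value could not cross 0.05. Counts of sites and genes had to stay within a set ratio of the main count. CTCF shares of sites had to stay within the exact 95% binomial interval of the main share. The gained minus lost difference in STAG2 and the count over genes with a given strand were added after seeing the data. Direction held under every alternative run for the number of peaks per list, the gene start share, STAG2 over lost sites (without 1 list: -50.8 to -38.4 points) and STAG2 over gained minus lost sites (35.4 to 48.5). The CTCF share of STAG1 peaks reversed to 5.97 points with STAG1 lists of equal length by fold enrichment and to 6.22 by −log10 q. STAG2 over gained sites reversed to 6.49 and 6.15 points under the same settings, to 13.5 with STAG2 lists of equal length, and ran between -11.9 and 5.74 without 1 list, with a positive sign without STAG2 replicates 2 or 3 of d4c7PGCLC (4.45, 2.32) or replicates 1 or 3 of d2PGCLC (5.74, 1.99).

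With equal lengths by fold enrichment, 2446 sites were gained and 2166 lost, with CTCF shares of 79.5% of gained, 47.2% of lost and 91.5% of retained sites and 241 genes at gained and 534 at lost sites. Ranked by −log10 q, the values were 2573 gained, 2259 lost, 79.9%, 46.7%, 91.4%, 264 and 559. Shorter lists by construction remove peaks, and more from d4c7PGCLC. Where the other stage only had to lack a site, 1017 sites were lost, the CTCF shares were 64.3% of gained and 26.0% of lost sites, and 2060 and 278 genes were at gained and lost sites. A CTCF peak of any genotype lay at 71.6% of gained, 30.5% of lost and 93.2% of retained sites. With −log10 q of at least 5, 62.2% of gained sites lay at CTCF. A window of 1000 bp left 666 genes at gained sites, and genes with a given strand left 77 at lost sites.

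Without 1 STAG1 list, gained sites numbered 11853 to 16905, lost sites 640 to 2031 and retained sites 19283 to 23257, with CTCF shares of 51.0% to 63.7%, 14.3% to 24.8% and 83.7% to 86.2%, and 1322 to 2001 genes at gained and 195 to 654 at lost sites. The extremes came from leaving out d4c7PGCLC replicate 1 (16905 gained sites, 2001 genes) and d2PGCLC replicate 1 (2031 lost sites, 654 genes).

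With replicate numbers as a block, the same differences had p = 0.5 for 2 pairs and 0.25 for STAG2 over lost sites in the paired exact permutation test, the smallest it allows, and 11129 sites were gained and 467 lost. The labels do not pair the numbers, and the deviations of same-numbered lists from their stage means correlated at 0.0103 for STAG1 and at 0.002 to 0.0281 for STAG2. Under the block the differences were 0.75 (log2 peaks), -8.06, -2.01, -1.4, -44.5 and 43.1 points in the order CTCF share, gene start share, STAG2 over gained sites, over lost sites and their difference.

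Read depth per list is unknown, so a missing call does not show that STAG1 was missing. How many reads the other stage had at a gained or lost site is not known. With −log10 q of at least 5 in every list, 10957 sites were gained and 448 lost.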
